A study of Mus musculus with 2 samples.

Results

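Collectrin, encoded by *Cltrn* and called *Tmem27* in the study, was examined together with the cofactors of the HNF1 transcription factors, *Pcbd1* and *Pcbd2*, the peptidase gene *Ace* and the amino acid transporter gene *Slc6a19*. These 5 genes, out of 19938 measured, were matched by gene symbol, and each was read by 1 probe set with a single symbol. They were selected on earlier results of the same arrays, since *Cltrn* and *Pcbd1* were picked by the study for their higher array values in *Mafk*-Tg, so their differences are given as a description. The paper also reported both genes as raised by qRT-PCR on individual biological samples, which are not part of the values used here. The *Mafk*-Tg embryos carried FLAG-tagged murine *Mafk* behind the rat *Insulin 1* promoter, which is active in β-cells, and the WT embryos did not. Embryos of both genotypes were on an ICR background and were taken at E15.5, at the secondary transition, when endocrine and acinar cells expand. Whole-pancreas RNA was read on Affymetrix MoGene-1_0-st arrays, 1 of each genotype, and the values are log2 signals normalized by the authors. The labels and the methods give 3 pancreata per genotype and do not say whether each array holds a pool.

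Collectrin is a membrane glycoprotein known from the kidney proximal tubule and from pancreatic β-cells. In mouse kidney it carries neutral amino acid transporters such as SLC6A19 to the cell surface. In β-cells it is cut by the protease BACE2 and binds snapin, a partner of the SNARE complex in exocytosis, and its gene is a known target of HNF1. PCBD1 has a double role. It is an enzyme that recycles tetrahydrobiopterin, the cofactor of the aromatic amino acid hydroxylases, and in the nucleus it stabilises HNF1 dimers. PCBD2 is its close relative and can do the same. ACE is a peptidase of endothelial and epithelial surfaces that makes angiotensin II and degrades bradykinin.

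The promoters of *Cltrn* and *Pcbd1* are shown because both hold GTTAAT, an arm of the palindromic HNF1 site, which was searched on both strands in RefSeq promoter windows of GRCm38.p6, reaching from 250 bases before a start site to 50 after it. The 100 bases before each start site are given from 5′ to 3′ with the HNF1 arms in capitals. They lie on the plus strand at chrX:164090087-164090186 for *Cltrn* and at chr10:61089231-61089330 for *Pcbd1*.
Cltrn: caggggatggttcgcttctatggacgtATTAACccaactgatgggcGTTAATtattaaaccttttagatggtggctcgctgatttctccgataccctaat
Pcbd1: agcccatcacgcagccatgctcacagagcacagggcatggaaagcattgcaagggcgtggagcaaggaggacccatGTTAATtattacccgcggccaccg
The *Cltrn* stretch holds 2 arms in opposite orientation, the first read on the other strand as ATTAAC, and the *Pcbd1* stretch holds 1. The *Cltrn* arms begin 73 and 54 bases before the start site and were not examined as 1 palindromic site. Only exact matches to the arm are in capitals, so a second arm with a mismatch stays in lower case. Both genes share the 11 bases GTTAATtatta, which begin 54 bases before the *Cltrn* start site and 24 bases before that of *Pcbd1*. The HNF1 arm was found in 2 of the 7 windows of the 5 genes and in 7.10% of all 32851 windows. No match lay in the second *Cltrn* window, in the 2 windows of *Ace* or in those of *Pcbd2* and *Slc6a19*. The only *Slc6a19* window, chr13:73692587-73692886 on the minus strand, lies inside the annotated gene, chr13:73679745-73700780. Bases before the annotated *Slc6a19* start at 73700780 were therefore not searched. TGCTGAC, an arm of the MAF recognition element, again on both strands, was in 0 of the 7 windows and in 4.67% of all windows. A match of letters is no evidence of binding, and a missing one says nothing of the factor.

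*Cltrn* and *Pcbd1* were higher in the *Mafk*-Tg array, *Slc6a19* was lower, and *Pcbd2* and *Ace* lay within 1.2-fold, the cutoff used by the study. *Cltrn* had a log2 value of 8.03 in *Mafk*-Tg and 7.01 in WT, a difference of 1.01 or 2.02-fold. On the linear scale the *Cltrn* signal was 261 in *Mafk*-Tg and 129 in WT. No gene among the 1000 nearest in mean level had a difference as high as that of *Cltrn*, and the robust SD of the differences of those genes was 0.15. Over all 19938 genes, 11 had a higher difference than *Cltrn*, *Xist* among them. Each genotype had 1 array, so none of these differences could be tested against replicate error, and precision is limited by the number of arrays.

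**Figure D1:**
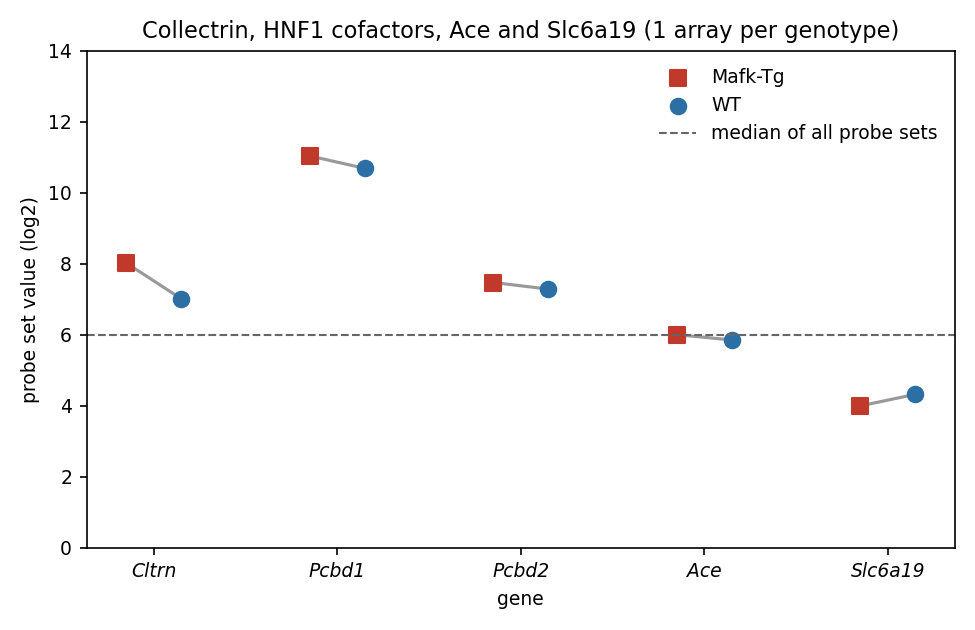
Log2 probe set values of the 5 genes in the *Mafk*-Tg (squares) and WT (circles) arrays, 1 array per genotype, with a line joining the values of a gene and a dashed line at the median of all probe sets. *Cltrn* lies at 8.03 in *Mafk*-Tg and 7.01 in WT, and *Slc6a19* lies under the median in both arrays.

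*Pcbd1*, the HNF1 cofactor and pterin enzyme, had a log2 value of 11.04 in *Mafk*-Tg and 10.69 in WT, a difference of 0.35 or 1.27-fold. Of the 1000 genes nearest in level, 16 had a higher difference, and their robust SD was 0.13. Its relative *Pcbd2* had a value of 7.47 in *Mafk*-Tg and 7.29 in WT. That difference of 0.18 stayed within 1.2-fold, and 116 of the 1000 genes nearest in level had a higher one. The 2 cofactor genes thus had differences of the same sign, and that of *Pcbd1* alone passed the cutoff.

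*Ace* had a log2 value of 6.004 in *Mafk*-Tg and 5.854 in WT, a difference of 0.15 that is smaller than the robust SD of 0.19 among genes of its level. *Slc6a19*, the neutral amino acid transporter that collectrin carries in kidney, had a value of 3.997 in *Mafk*-Tg and 4.323 in WT. Its difference of -0.33, or 1.25-fold, stands beside a robust SD of 0.25 among genes of its level, of which 135 of 1000 had a lower difference. On the linear scale the *Slc6a19* signal was 15.97 in *Mafk*-Tg and 20.02 in WT. It lies under the array medians, 6.01 in *Mafk*-Tg and 6.01 in WT on the log2 scale, where background makes up much of a signal. *Ace* was also under the median in both arrays.

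Of the 5 genes, 2 passed 1.2-fold as higher in *Mafk*-Tg and 1 as lower. Over all genes 7.96% were higher and 10.5% were lower. Among the 11412 genes at or above the median level, where *Cltrn*, *Pcbd1* and *Pcbd2* lie, the shares were 5.58% higher and 5.87% lower. Among the 8526 genes below it, where *Ace* and *Slc6a19* lie, 11.1% were higher and 16.6% were lower. Nothing is read from the count of 2 against these shares, since the 5 genes were chosen with the values known.

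**Figure D2:**
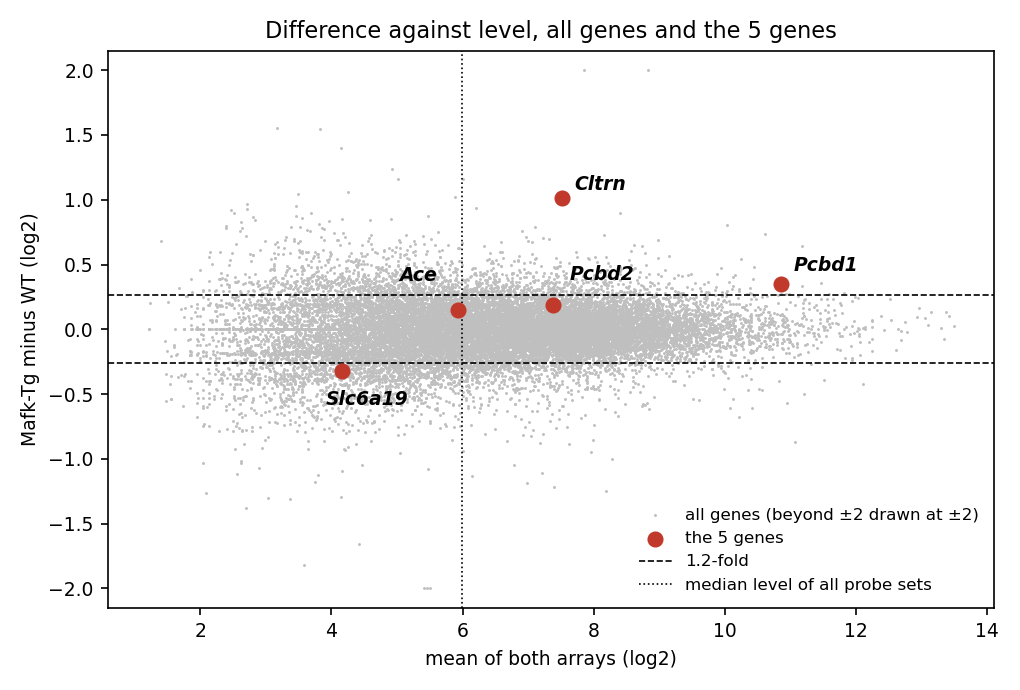
Log2 difference, *Mafk*-Tg minus WT, against the mean log2 value of both arrays for all 19938 genes (grey) and the 5 genes (red), with dashed lines at 1.2-fold and a dotted line at the median level of all probe sets. *Cltrn* stands at 1.01, apart from genes of its level, while *Slc6a19* at -0.33 lies within the wide spread of dim genes.

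*Cltrn* is X-linked, and the arrays differed in sex-linked genes. *Xist*, the RNA of the inactive X chromosome, had a log2 value of 11.30 in *Mafk*-Tg and 4.40 in WT, and 3 Y-linked genes went the other way, with differences of -5.68 for *Eif2s3y*, -4.67 for *Uty* and -3.93 for *Kdm5d*. Embryo sex, as far as these genes show it, and genotype cannot be told apart. The 4 X-linked genes that escape inactivation, *Kdm6a*, *Kdm5c*, *Eif2s3x* and *Ddx3x*, had differences of 0.60, 0.46, 0.39 and 0.30, all smaller than that of *Cltrn*. Over all 742 measured X-linked genes the median difference was 0.00, against a median of -0.01 over all genes. Of the 742 genes, 101 were higher and 78 lower, beside 7.96% higher and 10.5% lower over all genes. The X-linked share called higher was thus the larger one. At or above the median level, 35 of 359 X-linked genes were higher and 26 lower, against 5.58% and 5.87% of all genes at that level. Among the 741 X-linked genes other than *Xist*, *Cltrn* had the highest difference. It was followed by *Magea5* with 0.97, which had log2 values of 3.20 in *Mafk*-Tg and 2.23 in WT, far below the median.

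The genes next to *Cltrn* on the X chromosome had smaller differences than *Cltrn*, which was chosen with its value known. Of the 20 nearest measured neighbours, 10 on each side, 3 were at least 1.2-fold higher and 1 was lower, and 15 had a difference above 0. Over all genes 7.96% were higher and 10.5% lower, and 8960 of 19938 had a difference above 0. The median of the neighbours was 0.12, and 10 of them lay below the median level. The part of embryo sex in these values was not tested. *Siah1b*, a ubiquitin ligase gene on one side, had log2 values of 6.14 in *Mafk*-Tg and 5.89 in WT, a difference of 0.25. On the other side the kinase gene *Bmx* had 4.31 in *Mafk*-Tg and 3.99 in WT, a difference of 0.32 at a level below the median. *Ap1s2*, which encodes a subunit of a clathrin adaptor, was the only neighbour at or above the median level that passed the cutoff, with 7.24 in *Mafk*-Tg and 6.97 in WT. *Rnf138rt1* was higher by 0.35 and the glycine receptor gene *Glra2* had -0.41, both below the median level.

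**Figure D3:**
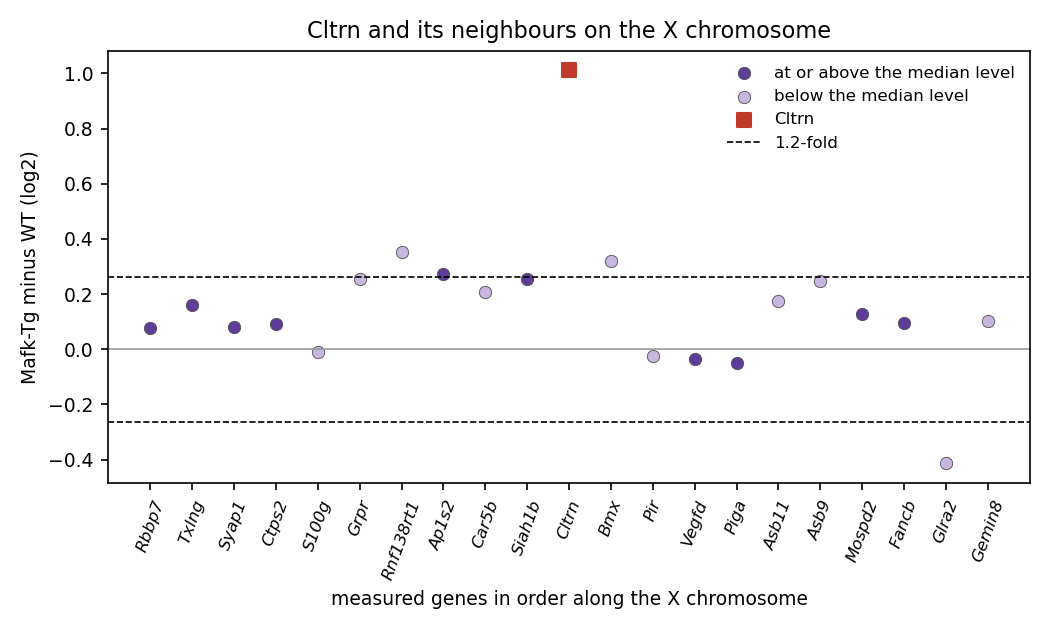
Log2 difference, *Mafk*-Tg minus WT, of *Cltrn* (square) and of the 10 nearest measured genes on each side (circles; pale below the median level), in their order along the X chromosome, with dashed lines at 1.2-fold. *Cltrn* stands at 1.01, and its neighbours lie between -0.41 and 0.35.

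Genes known to depend on HNF1 in liver, islet, kidney or gut did not move one way with *Cltrn*. Of 27 measured, 3 were at least 1.2-fold higher and 6 were lower, and their median difference was -0.13. Over all genes 7.96% were higher and 10.5% lower. Of the 27 genes 15 lay below the median level, where 11.1% of all genes were higher and 16.6% lower. Nothing is read from the count of 3 and 6. *Anks4b*, a scaffold gene that HNF1 controls in mouse β-cells, had log2 values of 5.92 in *Mafk*-Tg and 5.51 in WT, a difference of 0.40 at a level below the median. *Ttr*, the gene of the thyroxine carrier transthyretin, which α-cells also make, had 10.56 in *Mafk*-Tg and 10.29 in WT. Among the lower genes *Pklr*, which encodes pyruvate kinase of liver and erythrocytes, had 7.13 in *Mafk*-Tg and 7.82 in WT, a difference of -0.69. *Alb*, the albumin gene, had 10.66 in *Mafk*-Tg and 11.23 in WT. *Slc2a2*, the gene of the glucose transporter of β-cells and hepatocytes, had 6.63 in *Mafk*-Tg and 7.10 in WT. The α-fetoprotein gene *Afp* had a difference of -0.34.

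Some of these genes mark other cell types. Hepatocyte markers had a median difference of -0.31, with 6 of 11 lower and 1 higher, and their summed linear signal was 4857 in *Mafk*-Tg and 5503 in WT. The brightest genes weigh most in this sum. Among them *Alb* had log2 values of 10.66 in *Mafk*-Tg and 11.23 in WT, while *Ttr* and *Ambp* had differences of 0.27 and 0.17. Erythroid markers, which share a cell type with *Pklr*, had 6 of 10 lower and 2 higher, with a summed linear signal of 2074 in *Mafk*-Tg and 2750 in WT. The 22 HNF1-dependent genes that are not on the hepatocyte list had a median of -0.08, with 2 higher and 4 lower. Beside these counts, 7.96% of all genes were higher and 10.5% lower. The part of these cell types in the values was not tested. In RNA of a whole organ, fewer cells of a type and less RNA per cell cannot be told apart. *Pkhd1* and *Kif12*, which HNF1 controls in kidney tubules, had differences of 0.19 and 0.17, both within 1.2-fold.

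The HNF1 arm was common in the promoters of these genes. Of 23 HNF1-dependent genes with a promoter window, 15 held it, *Alb*, *Afp*, *Anks4b*, *Hnf4a* and *Pkhd1* among them. These 15 had a median difference of -0.03, with 1 higher and 3 lower. Across the array 1108 genes other than the 5 held it, of which 9.39% were at least 1.2-fold higher and 13.6% lower, while the 15614 genes with any window had 7.77% higher and 10.4% lower. At or above the median level, 6.42% of 467 genes with the HNF1 arm were higher and 5.35% were lower, against 5.46% and 5.76% of genes with a window, so the larger share of lower genes was not seen at that level. Of the 763 genes with the MAF arm at any level, 9.83% were higher and 13.5% lower, against 7.77% and 10.4% of genes with a window. At or above the median level, 5.84% of 394 genes with the MAF arm were higher and 9.14% were lower, against 5.46% and 5.76% of genes with a window. These shares are descriptions of 1 pair of arrays, and their differences were not tested.

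**Figure D4:**
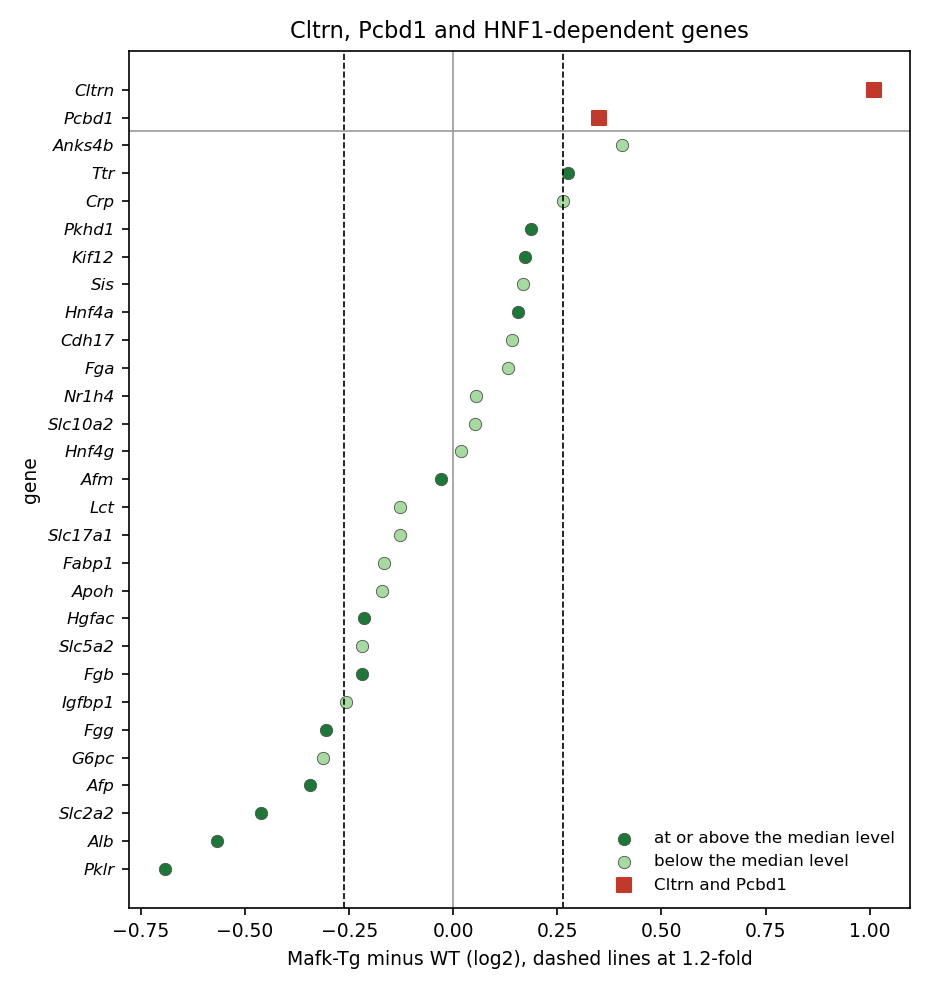
Log2 difference, *Mafk*-Tg minus WT, of *Cltrn* and *Pcbd1* (squares) and of 27 genes known to depend on HNF1 (circles; pale below the median level), from 1 array of each genotype. Dashed lines mark 1.2-fold, and *Cltrn* at 1.01 lies beyond all 27, which run from *Pklr* at -0.69 to *Anks4b* at 0.40.

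Transcription factors that act with HNF1 in pancreas and liver, and the coactivators it binds, had a median difference of 0.14, with 4 of 15 at least 1.2-fold higher and 0 lower. *Foxa2* had log2 values of 7.07 in *Mafk*-Tg and 6.68 in WT, and the related forkhead gene *Foxa1* had 5.60 in *Mafk*-Tg and 5.21 in WT, below the median level. *Prox1*, a homeobox gene of pancreatic progenitors, had 8.27 in *Mafk*-Tg and 7.96 in WT, and *Gata4*, a zinc finger factor of early pancreas and acinar cells, had 8.75 in *Mafk*-Tg and 8.47 in WT. *Hnf4a*, which forms a regulatory loop with HNF1, had 7.71 in *Mafk*-Tg and 7.56 in WT, a difference of 0.15. *Gata6*, the relative of *Gata4* and, after *Crebbp*, the highest of the list in level, had 9.74 in *Mafk*-Tg and 9.64 in WT. The acetyltransferase coactivator genes *Crebbp* and *Ep300* had differences of -0.08 and -0.12. The genes of the HNF1 factors themselves were not analysed here.

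The rest of the tetrahydrobiopterin pathway did not follow *Pcbd1*. Of 13 measured genes 1 was higher and 1 lower, and the median of 0.00 changed sign with the scaling, from -0.003 with equal medians to 0.03 after the loess of difference on level. *Qdpr*, whose enzyme acts in the step after PCBD1, had log2 values of 8.54 in *Mafk*-Tg and 8.47 in WT. *Pts* and *Gch1*, of tetrahydrobiopterin synthesis, had differences of 0.13 and -0.05, and *Gchfr*, the feedback regulator of that first enzyme, had 0.14. *Th*, the tyrosine hydroxylase gene that uses the cofactor, had 5.99 in *Mafk*-Tg and 5.61 in WT, a difference of 0.38 at a level just below the median. *Nos2*, a nitric oxide synthase gene, had -0.32. *Ddc*, whose enzyme decarboxylates the product of tyrosine hydroxylase, was among the 2 of highest level, with a difference of 0.04.

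Transporters related to *Slc6a19*, and other carriers of neutral and basic amino acids, had a median difference of -0.01. Of 25 genes 3 were at least 1.2-fold higher and 2 were lower, beside 7.96% higher and 10.5% lower over all genes. *Slc6a20b* had log2 values of 5.764 in *Mafk*-Tg and 6.502 in WT, a difference of -0.74. Its close paralog *Slc6a20a*, an imino acid transporter that collectrin also binds in kidney, had 5.84 in *Mafk*-Tg and 6.05 in WT. *Slc6a18*, which lies beside *Slc6a19* on chromosome 13 and also needs collectrin in mouse kidney, had 4.31 in *Mafk*-Tg and 4.54 in WT. The SLC6 genes of the list did not go one way, since these 3 had differences below 0 and the other 3, *Slc6a15*, *Slc6a14* and *Slc6a17*, had 0.37, 0.27 and 0.12. *Slc6a20b*, *Slc6a15* and *Slc6a14* passed the cutoff, the last 2 of them at levels below the median. *Slc43a1* was lower by 0.53, while the glutamate transporter gene *Slc1a1* had 0.38, below the median level. *Slc7a5* and *Slc3a2*, the subunits of the main carrier of large neutral amino acids, had differences of 0.01 and -0.06.

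Collectrin's partners in shedding and exocytosis lay within 1.2-fold apart from *Snap25*. This SNARE gene had log2 values of 6.57 in *Mafk*-Tg and 6.25 in WT, a difference of 0.32. *Bace2*, the sheddase, had 6.02 in *Mafk*-Tg and 6.25 in WT, a difference of -0.22, and *Snapin* had 8.03 in *Mafk*-Tg and 8.18 in WT, which differ by -0.15. *Snap23*, a SNARE gene, and *Bace1*, the relative of *Bace2*, had the highest levels of the list, with differences of -0.14 and -0.01. The median of the 11 genes, 0.00, also changed sign with the scaling, from -0.01 after quantile normalization to 0.003 after the loess. Among the markers of the cells that could hold collectrin, 4 of 7 α-cell markers were higher and 0 lower, and 1 of 10 β-cell markers was higher and 5 lower. These counts, and those of the other markers below, stand beside 7.96% higher and 10.5% lower over all genes. *Pou3f4*, a homeobox gene of α-cells, had 7.40 in *Mafk*-Tg and 6.72 in WT, *Tm4sf4* differed by 0.49 and the glucagon gene *Gcg* by 0.28. Of the β-cell markers, *G6pc2*, an islet glucose-6-phosphatase gene, had 5.58 in *Mafk*-Tg and 6.71 in WT. The zinc transporter gene *Slc30a8*, the transcription factor gene *Mafa* and the insulin gene *Ins2* differed by -0.54, -0.47 and -0.40, while the amylin gene *Iapp* stayed within the cutoff at 0.17. The summed linear signal of the α-cell markers was 6448 in *Mafk*-Tg and 5319 in WT, and that of the β-cell markers was 2528 in *Mafk*-Tg and 2587 in WT. The brightest genes weigh most in these sums, *Gcg* in the first and *Iapp* in the second. *Iapp* had log2 values of 10.35 in *Mafk*-Tg and 10.18 in WT, while the median difference of the β-cell markers was -0.24. Acinar markers had a median of 0.20, with 3 of 13 higher and 0 lower, and a summed signal of 54576 in *Mafk*-Tg and 49637 in WT. Duct and trunk epithelium markers had a median of 0.14, with 1 of 10 higher and 1 lower, and mesenchyme markers had -0.15, with 0 of 14 higher and 4 lower. The part of these cells in the values of *Cltrn* and *Pcbd1* was not tested.

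Peptidases and receptors of the angiotensin and kinin systems, to which *Ace* belongs, included no gene higher by 1.2-fold and 5 lower of 17 measured, with a median of -0.08. This count, and those of the markers below, stand beside 7.96% higher and 10.5% lower over all genes. *Ctsg* had log2 values of 7.57 in *Mafk*-Tg and 8.82 in WT, a difference of -1.25. *Cma1* and *Cpa3*, of mast cell granules, had differences of -0.55 and -0.54. *Ctsg* is itself a leukocyte marker, and 11 of 12 leukocyte markers were lower, with a summed linear signal of 4407 in *Mafk*-Tg and 7359 in WT. The neprilysin gene *Mme* had 8.47 in *Mafk*-Tg and 8.81 in WT, and the angiotensin receptor gene *Agtr2* had 9.65 in *Mafk*-Tg and 9.96 in WT. *Agt*, the angiotensinogen gene, had -0.08, and *Anpep*, an aminopeptidase gene, had -0.02. Endothelial markers, of the cells that carry much of the body's ACE, had a median of -0.11, with 2 of 14 lower and 0 higher, while *Ace* had 0.15.

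Markers of the organs where *Slc6a19* is best known were mostly dim. Of 12 kidney proximal tubule markers 9 lay below the median level, among them *Slc34a1*, a phosphate transporter gene, with 5.47 in *Mafk*-Tg and 5.65 in WT. *Miox* and *Kap* were the 2 past the cutoff, with differences of -0.43 and 0.39 at levels below the median, and the water channel gene *Aqp1* had -0.23. Of 11 intestinal epithelium markers 9 lay below it, with *Fabp2*, a fatty acid carrier gene of enterocytes, at 3.25 in *Mafk*-Tg and 3.43 in WT. *Cdx1*, a homeobox gene of the gut, was higher, with 6.68 in *Mafk*-Tg and 6.17 in WT, and *Vil1*, the villin gene, had 7.24 in *Mafk*-Tg and 6.98 in WT.

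**Figure D5:**
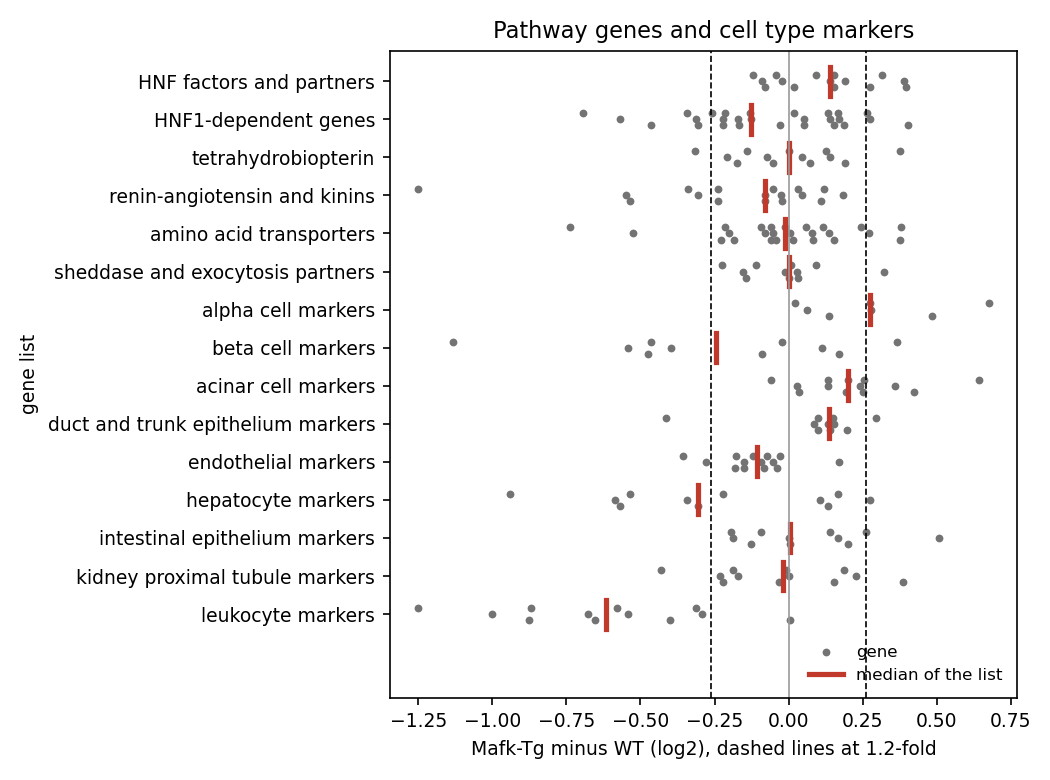
Points give the log2 difference, *Mafk*-Tg minus WT, of single genes and bars the median of a list, for 6 pathway lists and 9 cell type marker lists, from 1 array of each genotype. Dashed lines mark 1.2-fold. The median of the HNF1-dependent genes lies at -0.13, that of the α-cell markers at 0.27 and that of the leukocyte markers at -0.62.

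*Mafk*, the gene of the transgene, read 6.997 in *Mafk*-Tg and 6.749 in WT on the log2 scale, a difference of 0.25 that lies within 1.2-fold. The array reads RNA of the whole organ, and the promoter of the transgene is active in β-cells, a small part of it. Whether this bears on the *Mafk* values was not tested, nor was how far the probe set reads the transgene. A list of 9 reference genes had a median of 0.02, and 0 of them passed the cutoff.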

How the data were processed

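Total RNA of whole E15.5 pancreata was hybridised to MoGene-1_0-st-v1 arrays. Normalization and summarization were done by the authors with Affymetrix Expression Console (version and algorithm not given in the sources used here), and the deposited values, from 0.51 to 14.01, are on the log2 scale. The platform's table gives 1 gene symbol to 21789 of the 35556 probe sets, several to 1621 and none to 12146. Symbols were updated through gene IDs to RefSeq of GRCm38.p6, and probe sets with 1 symbol were averaged to 19938 genes. Differences are *Mafk*-Tg minus WT, and 1.2-fold is 0.26 on the log2 scale. No test was possible with 1 array of each genotype. A robust SD is the scaled median absolute deviation over the 1000 genes nearest in mean level.

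The members and gene lists were chosen with earlier results of these data known. The rule for naming genes took from each list up to 5 with the largest difference among those past the cutoff, the 2 of highest level and known partners of the 5 genes. It was followed for the 6 pathway lists and the α-cell, β-cell, kidney and intestine markers, and the other marker lists are given by their counts, medians or summed signals. *Magea5*, *Siah1b*, *Pkhd1*, *Kif12*, *Pts*, *Gch1*, *Gchfr*, *Slc6a17*, *Slc34a1*, *Fabp2*, *Vil1*, *Agt*, *Ep300* and the genes that share 11 promoter bases were picked with their values known. Listed genes that no single-symbol probe set names are not analysed here. As alternatives, the medians were set equal, the arrays were quantile normalized, a loess curve of difference against mean level (span 0.3) was subtracted, and genes were read by the brightest probe set alone. Counts were also taken without dim genes, without sex chromosome genes, and at 1.5-fold. The steps were tested on simulated data of 19938 genes for *Mafk*-Tg minus WT, where 100% of genes changed by 1, 98.0% of those raised by 0.5 and 94.0% of those lowered by 0.5 on the log2 scale passed the cutoff. The simulated noise had the same SD at every level, while the robust SD was 0.13 near *Pcbd1* and 0.25 near *Slc6a19*. These shares thus do not describe dim genes, and the share of unchanged genes that passed was not recorded. The work was done in Python 3.11.15 with pandas 2.3.3 and numpy 2.4.6, the loess with statsmodels 0.14.6 and the plots with matplotlib 3.10.9.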

Additional observations from a re-analysis of the deposited data

How the results depend on the processing

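The differences of the 5 genes shifted less than the robust SD found at their own level and kept their side of the 1.2-fold cutoff under equal medians, quantile normalization, the loess and the brightest probe set. *Cltrn* ranged from 1.01 to 1.02, *Pcbd1* from 0.34 to 0.36, *Pcbd2* from 0.18 to 0.19, *Ace* from 0.14 to 0.16 and *Slc6a19* from -0.33 to -0.29. At 1.5-fold, *Cltrn* alone of the 5 passed. The counts over all genes, 1587 higher and 2087 lower, became 637 and 670 at or above the median level and 139 and 253 at 1.5-fold. The loess gave 1730 higher and 1923 lower. No list median moved by as much as the robust SD of its own genes, but those of the tetrahydrobiopterin and the shedding and exocytosis lists, at 0.00, changed sign with the scaling. No paired analysis was possible because each genotype has 1 array and the labels give no replicate numbers. Neither the spread between embryos nor that between arrays could be estimated. *Ace* and *Slc6a19* lie below the median level, where probe sets pass 1.2-fold more often, and values near the top of the scale may hide a difference.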

Other observations

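The 11 bases GTTAATtatta that *Cltrn* and *Pcbd1* share before their start sites were noticed in the printed stretches and then looked for on both strands of all windows. They are not separate from the HNF1 arm, since they hold GTTAAT, 1 more base and ATTA, which begins the opposite arm ATTAAC. The 11 bases were in 16 of 32851 windows, or 0.0487%, against 7.10% for the arm alone, and 10 genes measured here held them. Besides *Cltrn* and *Pcbd1*, 2 of these lay at or above the median level. *Mia2*, which encodes a protein of the sites where cargo leaves the endoplasmic reticulum, had log2 values of 7.75 in *Mafk*-Tg and 7.23 in WT, a difference of 0.52. *Pkhd1*, the fibrocystin gene of kidney and bile duct cilia, had 7.03 in *Mafk*-Tg and 6.84 in WT. Among the genes below the median level, *Rassf6* had 0.44, the chloride transporter gene *Slc26a3* 0.22, the complement gene *Hc* -0.22 and the odorant receptor gene *Olfr734* -0.55. Of the 10 genes 4 were at least 1.2-fold higher and 1 was lower, and this count includes *Cltrn* and *Pcbd1*, from which the stretch was taken, so nothing is read from it.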
